A study of Mus musculus with 6 samples.

Results

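The chaperone genes Hspa1a, Hspa1b, Hspa8, Hsph1, Hspb1, Dnajb1, Hsp90aa1, Hsp90ab1, Hsp90b1 and Hspa5 were followed across the cell types of naive and transplanted mouse kidneys by single-cell RNA-seq. They were taken by symbol and make up 10 of the 28208 genes that all 6 count matrices list. All 10 were detected, and all 10 passed the filter on low counts in each of the 6 cell classes tested. The study profiled 2 kidneys per group on the 10x Genomics platform. Naive kidneys came from healthy male C57BL/6 (B6) mice aged 10 to 12 weeks, which carried no graft. Rejecting and tolerized kidneys were BALB/c grafts from donors aged 6 to 7 weeks, which the paper describes as male or female. They were placed in male B6 recipients whose own kidneys were both removed, and were taken on day 15. Tolerized recipients alone were also infused with ECDI-SP, which are donor spleen cells fixed with ethylcarbodiimide. All 6 kidneys were enzymatically dissociated, red cells were lysed, and recipients were wild type. Transplanted kidneys can hold both BALB/c graft cells and B6 recipient cells. Naive and transplanted kidneys therefore differ in surgery, the Cell Ranger gene list used (28692 against 31053 genes) and, for graft-derived cells, strain and donor age. Donor sex and other technical features of the libraries may differ too, and none of these can be told apart.

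Chaperones bind proteins that are not yet folded or have lost their fold. In the cytosol, HSP70 proteins (Hspa1a and Hspa1b, which are stress inducible, and Hspa8, the constitutive form) work in an ATP-driven cycle. DNAJ proteins such as Dnajb1 deliver clients to HSP70, and Hsph1 resets it by exchanging its nucleotide. HSP90 (Hsp90aa1, inducible, and Hsp90ab1, constitutive) receives kinases and steroid receptors from HSP70, while Hspb1 is a small heat shock protein that holds unfolded clients without ATP. In the endoplasmic reticulum (ER) the counterparts are Hspa5, also called BiP, and Hsp90b1, also called GRP94. The cytosolic genes are classic targets of heat shock factor 1, which binds inverted repeats of the GAA unit (heat shock elements), and the ER genes are classic targets of the unfolded protein response, which acts through the ER stress response element. In the kidney, several of these genes are known to rise in tubule cells after ischemia.

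Promoters from RefSeq (GRCm38.p6) are shown because they hold the motifs of the factors named above. An entry was found for 7 of the 10 members, and Hspa8, Hsp90aa1 and Hsp90ab1 had none. Distances are counted from the RefSeq start, and stretches were cut where GENCODE, whose gene starts further out for Hsph1, Hspa5 and Hsp90b1, already annotates the gene. Capitals mark a heat shock element, searched as GAANNTTC or TTCNNGAA, in the first group of sequences and the ER stress response element, searched on both strands as CCAAT, 9 bases and CCACG, in the second group. The first group comprises the minus strand 250 bases upstream of Hspa1a (chr17:34972157-34972406) and of Hspa1b (chr17:34959239-34959488), the plus strand 250 bases upstream of Hspb1 (chr5:135887669-135887918) and a site of Hsph1 (chr5:149636357-149636374, minus strand), which lies before both RefSeq starts of Hsph1 but inside the gene as GENCODE annotates it.
Hspa1a: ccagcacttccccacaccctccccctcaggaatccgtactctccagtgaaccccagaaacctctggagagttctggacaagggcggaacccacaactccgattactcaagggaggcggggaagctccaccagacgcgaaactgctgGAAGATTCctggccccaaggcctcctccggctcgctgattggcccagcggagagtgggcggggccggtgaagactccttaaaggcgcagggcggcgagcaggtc
Hspa1b: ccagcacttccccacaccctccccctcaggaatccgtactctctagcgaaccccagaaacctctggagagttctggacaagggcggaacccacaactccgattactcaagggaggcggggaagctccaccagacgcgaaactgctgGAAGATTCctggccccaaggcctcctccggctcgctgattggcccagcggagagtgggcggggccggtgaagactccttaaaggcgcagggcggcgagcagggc
Hspb1: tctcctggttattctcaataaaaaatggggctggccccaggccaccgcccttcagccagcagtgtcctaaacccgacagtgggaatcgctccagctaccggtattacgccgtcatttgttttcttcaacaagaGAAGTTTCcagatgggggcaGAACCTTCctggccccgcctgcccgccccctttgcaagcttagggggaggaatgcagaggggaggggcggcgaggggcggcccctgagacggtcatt
Hsph1: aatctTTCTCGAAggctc
Hspa1a and Hspa1b lie side by side, and their 250 bases differed at 3 positions (98.8% identical), with the heat shock element 97 bases before the start in both. Hspb1 had 2 such elements, 110 and 90 bases before its start, and the site of Hsph1 lies 47 and 26 bases before its 2 RefSeq starts. Of 32851 mouse promoters searched over the same 250 bases, 12.84% held this motif. Dnajb1 held neither motif in its window. The second group comprises 185 bases outside the GENCODE gene Hsp90b1 (chr10:86705510-86705694, minus strand) and a site of Hspa5 (chr2:34772020-34772048, plus strand), which lies before the RefSeq start but inside the GENCODE gene.
Hsp90b1: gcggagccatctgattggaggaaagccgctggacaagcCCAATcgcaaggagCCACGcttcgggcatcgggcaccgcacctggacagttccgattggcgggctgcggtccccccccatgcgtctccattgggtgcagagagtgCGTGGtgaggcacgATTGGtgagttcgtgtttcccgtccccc
Hspa5: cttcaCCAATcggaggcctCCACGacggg
Hsp90b1 held 2 ER elements, 194 and 89 bases before its RefSeq start, and Hspa5 held 1, 47 bases before its RefSeq start. Only 37 of the 32851 promoters (0.113%) held this motif. No data on factor binding were analysed here.

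After filtering and removal of predicted doublets, 45667 cells remained, 5608 to 10483 per kidney. Median depth was 2542 to 3584 unique molecular identifiers (UMIs) per cell for naive and rejecting kidneys, against 6149 and 7311.5 under tolerance. The median mitochondrial share was 25.5% and 24.9% in naive kidneys and 5.38% to 13.7% in transplanted kidneys. Naive and transplanted kidneys shared at most 4 cell barcodes a pair, and the 2 naive kidneys shared 111. Pairs of transplanted kidneys shared 18 to 35. Naive and transplanted libraries may thus also differ in how they were made, which was not tested. Cells were clustered without the chaperones, without the other listed stress genes and without mitochondrial and ribosomal protein genes. Clusters were named from marker genes, 35 of 42 of them. UMIs were then summed per kidney and class. Naive kidneys held 34 and 40 T cells, too few to test, and 80 and 146 myeloid cells (macrophages and monocytes). Of the 11 proximal tubule clusters, 5 were at least 95% naive and 5 at least 95% transplanted, led by Inmt, Azgp1, Car3 (in 2 of them) and Gm45792 in naive kidneys and by Ubd, Gm26825, Ugt2b37, Gsta1 and Rnase4 in transplanted kidneys. The same kind of split was seen in the distal convoluted tubule, with 1 cluster of each kind of 3. Naive and transplanted cells of these 2 segments were therefore mostly in different clusters, whereas loop of Henle, principal cells and intercalated cells each formed 1 cluster that held both. At resolution 0.8 the distal convoluted tubule was also 1 shared cluster. Rejecting kidney 1 stood apart: it gave 1490 of the 1649 cells of a T cell cluster with a median of 850 UMIs, and 1447 of the 3139 cells of the Ubd-led proximal tubule cluster. Levels below are CPM (a gene's UMIs scaled to a common total of all UMIs of the class), after TMM scaling where a test is given and without that scaling where they are called raw CPM. They are 3' counts, so a level is compared between kidneys or classes and not between genes.

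In tolerized kidneys, chaperone levels were lower than in rejecting kidneys in nearly every class and for nearly every member, but no single member passed the edgeR test at an adjusted p (FDR, Benjamini-Hochberg over all genes tested) of 0.05. All 10 members had lower values in proximal tubule, loop of Henle, collecting duct, T cells and myeloid cells, and 9 of 10 in the distal convoluted tubule, which makes 59 of 60 values. The median log2 fold change over the 10 members was -0.83 in proximal tubule, -0.41 in loop of Henle, -0.31 in distal convoluted tubule, -0.71 in collecting duct and -0.63 in both T cells and myeloid cells, against medians within 0.02 of 0 over all genes tested in each class. Graft outcome and the ECDI-SP infusion differ together between these groups and cannot be told apart. The tolerized libraries also had a higher median of UMIs per cell.

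**Figure D1:**
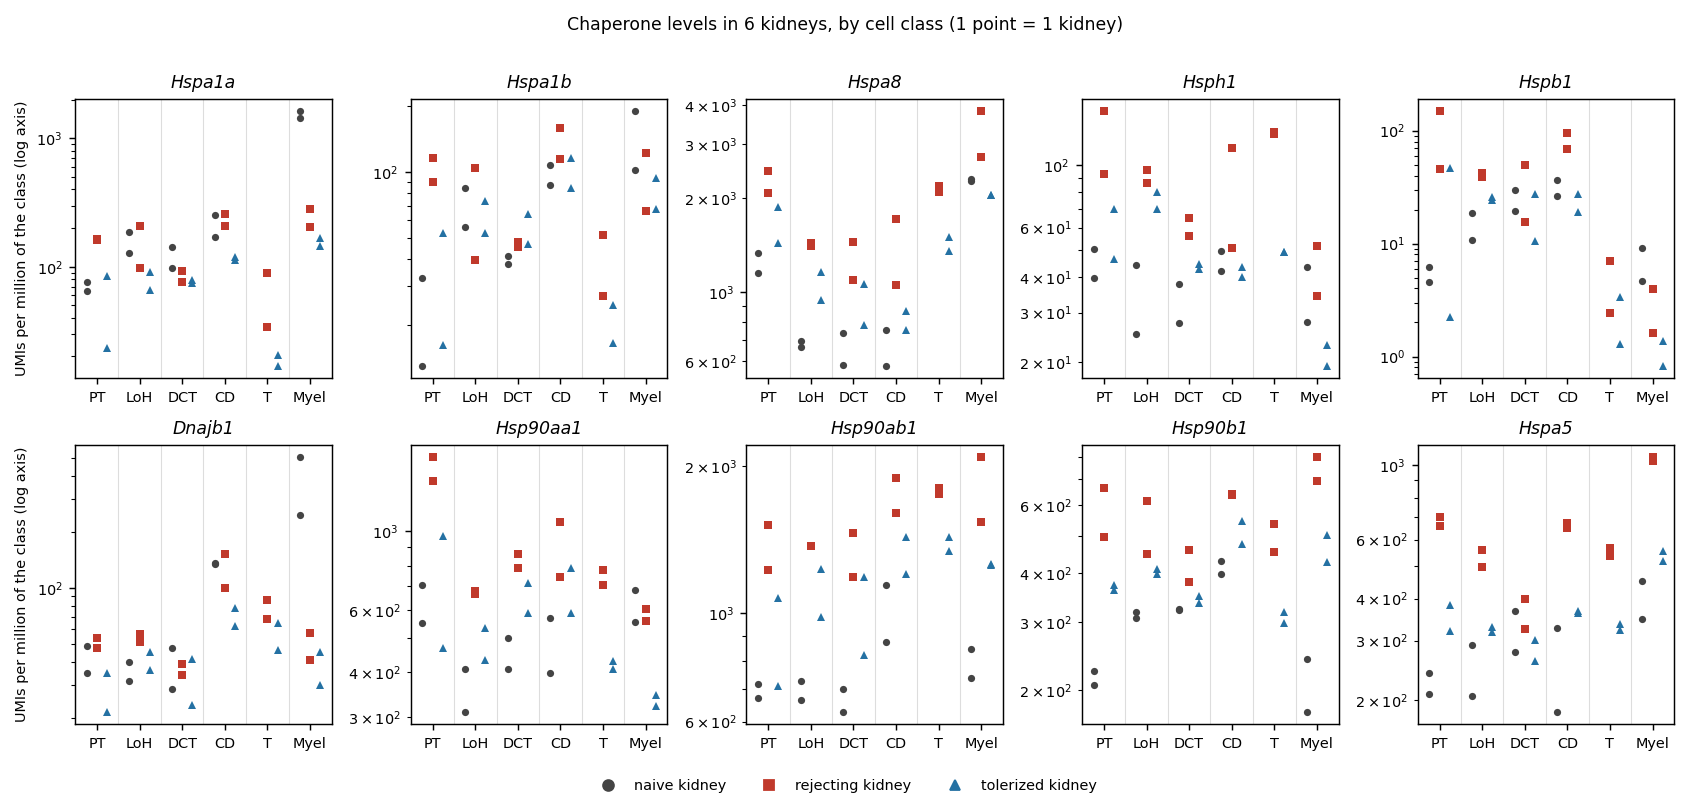
Raw CPM on a log axis for each of the 10 chaperones in proximal tubule (PT), loop of Henle (LoH), distal convoluted tubule (DCT), collecting duct (CD), T cells (T) and myeloid cells (Myel); each point is 1 kidney, and naive T cells are left out because under 50 cells were found. Rejecting kidneys (squares) lie above tolerized kidneys (triangles) in most panels, and the naive kidneys (circles) lie far above both for Hspa1a and Dnajb1 in myeloid cells.

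Among the inducible HSP70 genes of the proximal tubule, Hspa1a stood at 77.2 and 88.4 CPM in naive kidneys, 141 and 143 CPM under rejection and 79.2 and 24.4 CPM under tolerance. Both rejecting kidneys were above all other kidneys, and the tolerized kidneys differed from each other more than the others did. The tolerized to rejecting difference was a log2 fold change -1.45, SE 0.44, FDR 0.268. Hspa1b stood at 15.5 and 38.0 CPM in naive kidneys, 78.2 and 99.8 CPM under rejection and 48.9 and 16.9 CPM under tolerance, and its log2 fold change, the quantity given first in each bracket from here on, was -1.43 (FDR 0.336). Constitutive Hspa8 differed least, at 2127 and 1796 CPM under rejection and 1746 and 1502 CPM under tolerance (-0.27, FDR 0.697). Of the cochaperones, Hsph1 was -0.92 (FDR 0.243) and Dnajb1 -0.67 (FDR 0.315), and neither overlapped between the groups. Hspb1 had the largest value, -1.87, with a wide error (SE 1.00). Its kidneys stood at 39.6 and 127 CPM under rejection and 43.0 and 2.33 CPM under tolerance and overlapped. In the HSP90 pair, inducible Hsp90aa1 was -0.90 (FDR 0.292) and constitutive Hsp90ab1 -0.45 (FDR 0.478). In the ER, Hspa5 stood at 606 and 568 CPM under rejection and 355 and 336 CPM under tolerance, with the smallest FDR of the 10 (log2 fold change -0.76, SE 0.17, FDR 0.221), and Hsp90b1 was -0.47 (FDR 0.396).

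In T cells, Hsph1 showed the clearest separation. It stood at 120.3 and 126 CPM under rejection and 51.1 and 53.0 CPM under tolerance, with near-identical kidneys within each group and a log2 fold change -1.24, SE 0.20, FDR 0.395. Hspa1a was at 82.6 and 33.4 CPM under rejection and 17.6 and 22.0 CPM under tolerance (-1.56, FDR 0.449), so the 2 rejecting kidneys were far apart and the higher was rejecting kidney 1. Hsp90aa1, at 719 and 694 CPM under rejection and 448 and 439.5 CPM under tolerance, was lower by a similar amount in both tolerized kidneys (-0.67, FDR 0.566). The ER pair followed, with Hspa5 at 495 and 556 CPM under rejection and 334 and 361 CPM under tolerance (-0.60, FDR 0.611) and Hsp90b1 at -0.53 (FDR 0.636). Hspb1 was close to undetected in T cells, at 6.46 and 2.38 CPM under rejection and 3.51 and 1.38 CPM under tolerance. Leaving out the low-UMI cluster of rejecting kidney 1 left Hspa1a at -1.45, FDR 0.257 and Hsph1 at -1.29, FDR 0.168.

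In myeloid cells, the smallest p among the members was that of the ER chaperone Hspa5. It stood at 1022 and 1030.5 CPM under rejection and 514 and 578 CPM under tolerance, which did not overlap (log2 fold change -0.91, SE 0.16, FDR 0.478). Hsp90b1 stood at 789.7 and 678 CPM under rejection and 427 and 523 CPM under tolerance (-0.63, FDR 0.623). Hsph1 was -0.98 (FDR 0.529), Hsp90aa1 -0.76 (FDR 0.485) and Hspa8 -0.63 (FDR 0.657). Of the inducible HSP70 genes, Hspa1a was at 202 and 275 CPM under rejection and 167 and 152 CPM under tolerance (-0.58, FDR 0.659), and Hspa1b overlapped (-0.17, FDR 0.954). The myeloid minus proximal tubule difference of these changes, tested itself, was 1.05, SE 0.53, FDR 0.771 for Hspa1a and 1.41, SE 0.42, FDR 0.739 for Hspa1b. None of the 10 members passed that test between proximal tubule and T cells (0% of all genes), between proximal tubule and myeloid cells (0%) or between T cells and myeloid cells (0%).

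In the distal nephron, the collecting duct gave the smallest unadjusted p of this comparison. Hspb1 stood there at 92.1 and 67.7 CPM under rejection and 18.5 and 30.0 CPM under tolerance (log2 fold change -1.68, SE 0.27, FDR 0.104, unadjusted p = 5.68e-05). Hspa1a was at 250.2 and 205 CPM under rejection and 109.8 and 129.6 CPM under tolerance (-0.92, FDR 0.199) and Hspa5 at 634 and 661 CPM under rejection and 360.2 and 394 CPM under tolerance (-0.78, FDR 0.430). The collecting duct sum mixes principal cells, which handle water and sodium, and intercalated cells, which handle acid and base. Intercalated cells were 49 of 99 and 31 of 104 cells under rejection and 41 of 184 and 72 of 420 under tolerance. Hspb1 was at 189 and 201 raw CPM under rejection and 38.8 and 81.9 under tolerance in intercalated cells, and at 15.4 and 18.2 against 12.5 and 14.4 in principal cells. Hspa1a was at 428 and 404 against 184 and 175 in intercalated cells and 113 and 134 against 88.9 and 106 in principal cells. The 2 cell types were not tested apart, so the pooled values hold both their levels and their mix. Hspa5 lay at 655 and 665 against 332 and 349.5 in principal cells and 647 and 697 against 479 and 413 in intercalated cells. In the loop of Henle, Hspa1a was -0.95 (FDR 0.384), Hspa5 -0.69 (FDR 0.353) and Hspb1 -0.66 (FDR 0.442). Values in the distal convoluted tubule lay between -0.80 for Hspb1 and 0.28 for Hspa1b, the 1 member of the 60 that was higher in tolerized kidneys.

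**Figure D2:**
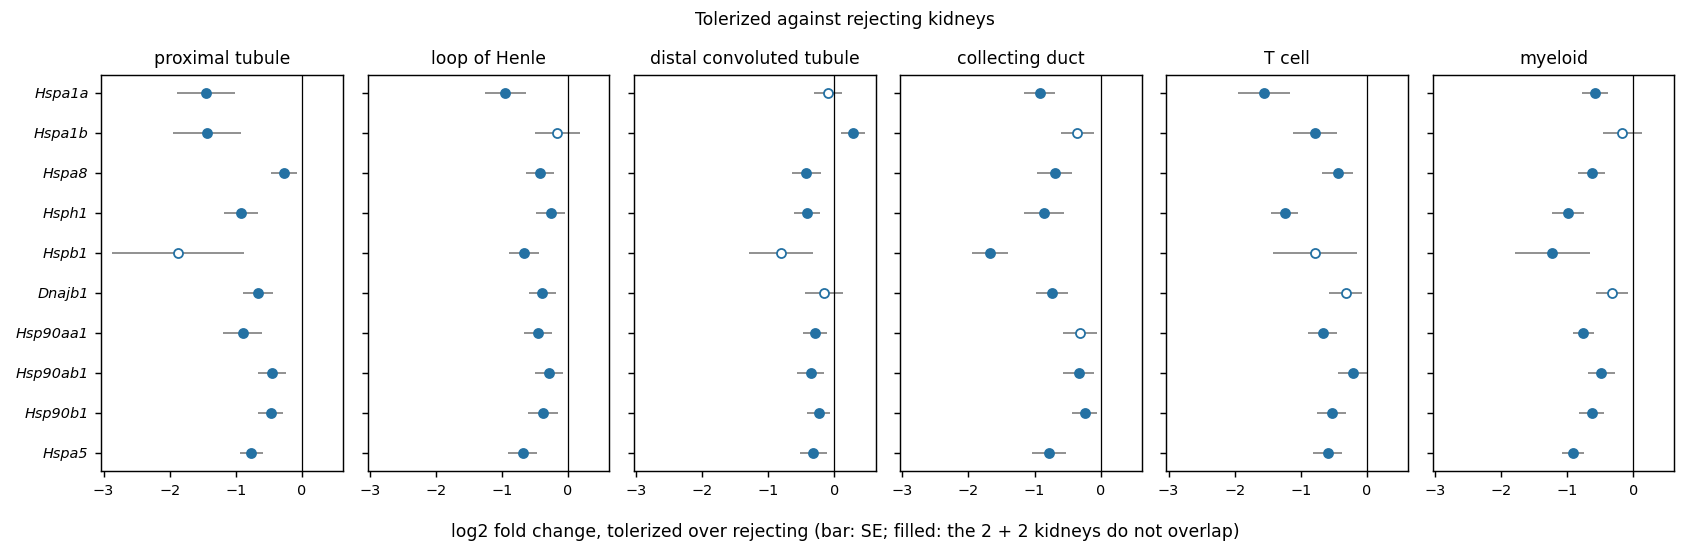
Log2 fold change of tolerized over rejecting kidneys for each chaperone in the 6 classes, with bars of 1 SE; filled points mark members whose 2 tolerized and 2 rejecting kidneys do not overlap. All values except Hspa1b in the distal convoluted tubule lie left of 0, and none passed an FDR of 0.05.

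The counts of members are given beside the share of all genes tested. The edgeR test called 0 of the 10 members in proximal tubule (0% of all genes called), loop of Henle (0.433%), distal convoluted tubule (0.0574%), collecting duct (0.00927%), T cells (0%) and myeloid cells (0%). At an unadjusted p under 0.05, 7 of 10 members were lower in proximal tubule (6.85% of all genes), 3 in loop of Henle (3.89%), 0 in distal convoluted tubule (4.4%), 6 in collecting duct (4.31%), 6 in T cells (4.54%) and 7 in myeloid cells (2.99%). Both tolerized kidneys lay below both rejecting kidneys for 9 members in proximal tubule (19.8% of all genes), 9 in loop of Henle (18.1%), 6 in distal convoluted tubule (18.1%), 8 in collecting duct (18.3%), 8 in T cells (20%) and 8 in myeloid cells (18.8%). DESeq2 called Hspa5 in proximal tubule (0.838% of all genes lower), Hspb1 in collecting duct (0.306%), Hspa1a and Hsph1 in T cells (0.124%) and Hsp90aa1 and Hspa5 in myeloid cells (0.246%). It called 0 in loop of Henle (0.299%) and distal convoluted tubule (0.325%). The 10 genes of a kidney share its libraries, so their common direction is not 10 separate results. The members were also chosen with earlier results of these data known, so these shares are no test of the list.

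Some of these counts moved with the processing. Without the filter on low counts, edgeR called 7 members in proximal tubule (849 of 18718 genes) and 3 in collecting duct (323 of 17055). It called 2 in myeloid cells (92 of 17414) and 1 in loop of Henle (293 of 16555). Without rejecting kidney 2, it called Hspa8, Hsph1 and Hspb1 in collecting duct. Without tolerized kidney 1 it called Hspa1a in proximal tubule, and without rejecting kidney 2 or tolerized kidney 2 it called Hspa1a in T cells. Calls over all genes rose as well in these fits that left out a kidney. Each of these fits sets 1 kidney against 2, and the lone kidney is assumed to vary like the others.

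The share of cells with at least 1 UMI, after each cell was thinned to 1000 UMIs, was also lower in tolerized kidneys, although for Hspa5 and Hsp90b1 the direction turned without thinning in 2 classes. For Hspa5 it was 45.4% and 42.5% in proximal tubule under rejection and 28.9% and 23.1% under tolerance. In T cells it was 40.3% and 40.5% against 25.6% and 29.3%, and in myeloid cells 55.3% and 57.8% against 36.7% and 34.9%. For Hspa1a the shares were 6.32% and 6.68% against 3.47% and 1.32% in proximal tubule, 6.47% and 2.25% against 1.79% and 1.84% in T cells and 16.7% and 18.7% against 11.7% and 11.0% in myeloid cells. Groups did not overlap in any of these 6 cases, though the share of all genes that do so after thinning was not computed. For levels, both tolerized kidneys lay below both rejecting kidneys for 19.8% of all genes in proximal tubule, 20% in T cells and 18.8% in myeloid cells. The smallest p that an exact two-sided permutation test of 2 kidneys against 2 can give is 0.333. Unthinned, the Hspa5 share turned to 69.6% and 72.9% against 76.1% and 77.7% in proximal tubule and 54.6% and 69.0% against 70.1% and 70.5% in T cells. In both classes the median of UMIs per cell was higher in the tolerized kidneys. The Hsp90b1 share turned as well, by 5.70 percentage points in proximal tubule and 10.0 in T cells. Cells under 1000 UMIs were left out, 1201 T cells of rejecting kidney 1 and at most 496 in each other case.

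Other measures differed between the same groups in some classes. Summed T cell markers in the proximal tubule sums were 43.0 to 177 raw CPM under rejection and 14.9 to 18.8 under tolerance, against 8768 to 10454 in rejecting T cells themselves. Summed macrophage markers there were 77.0 to 269 and 27.2 to 58.2, and 11 of 11 and 8 of 8 markers were detected. The 18 immediate early genes, such as Fos and Jun, summed to 4795 to 5745 and 2219.5 to 4383 in proximal tubule, 4727 to 5668 and 4380.0 to 4420.2 in T cells, 4079.8 to 4855 and 2578 to 2791 in loop of Henle and 5993 to 6346 and 3154 to 4428 in collecting duct. They overlapped in distal convoluted tubule (2714 to 3417 and 2146 to 3439) and myeloid cells (5472 to 8076 and 5724 to 6565). Over the 18 genes the median log2 fold change was -0.57 in proximal tubule, -0.76 in loop of Henle, -0.04 in distal convoluted tubule, -0.56 in collecting duct, -0.23 in T cells and -0.07 in myeloid cells. Macrophage markers in the T cell sums were 126 to 612 under rejection and 39.9 to 69.9 under tolerance. The part of these, and of the greater depth of the tolerized libraries, in the lower chaperone levels was not tested. Without the Ubd-led cluster, proximal tubule Hspa5 was -0.81, FDR 0.252.

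Other genes of the same pathways had medians nearer 0. Of 41 other heat shock and cochaperone genes (mostly cytosolic, with the mitochondrial Hspd1, Hspe1, Hspa9 and Trap1 among those listed) tested in proximal tubule, 0 passed the tolerized to rejecting test and the median was -0.11. Of 30 other ER chaperone and unfolded protein response genes, 0 passed and the median was -0.22. In myeloid cells the medians were -0.17 over 39 heat shock genes and -0.28 over 31 ER genes, and in T cells -0.06 over 38 and -0.18 over 30, with 0 called. Among the immediate early genes, 1 passed in any class, Ier5 in the loop of Henle (-1.47, FDR 0.0381).

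Against naive kidneys, rejecting tubules had higher levels of every called member except Hspa1a in the distal convoluted tubule. Of the 10 members, edgeR called 5 higher in proximal tubule (22.5% of all genes), 6 in loop of Henle (8.82%), 4 in distal convoluted tubule (12.6%), 5 in collecting duct (10.9%) and 3 in myeloid cells (8.61%). Called lower were 0 in proximal tubule (19.1%), loop of Henle (7.81%) and collecting duct (9.18%), 1 in distal convoluted tubule (11.1%) and 2 in myeloid cells (6.6%). Strain, donor age and possibly donor sex differ with this contrast for graft-derived cells. Gene list, mitochondrial share and, in proximal and distal convoluted tubule, cluster make-up also differ with this contrast. Leukocyte markers in the tubular sums moved with it as well. Summed macrophage markers in raw CPM, rejecting against naive, were 77.0 to 269 against 9.97 to 20.9 in proximal tubule, 183 to 337 against 0.773 to 13.3 in loop of Henle, 63.8 to 323 against 13.3 to 14.0 in distal convoluted tubule and 47.4 to 356 against 5.67 to 7.17 in collecting duct. Summed T cell markers were 43.0 to 177 against 1.19 to 1.34 in proximal tubule, 48.4 to 185 against 1.33 to 6.18 in loop of Henle, 73.5 to 226 against 2.00 to 2.48 in distal convoluted tubule and 61.2 to 138 against 12.999 to 20.04 in collecting duct. B cell markers were 21.8 to 35.0 against 0 to 1.55 in loop of Henle. Their part in the changes below was not tested.

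In the rejecting proximal tubule, both ER chaperones rose. Hspa5 went from 287 and 241 CPM in naive kidneys to 606 and 568 CPM under rejection (log2 fold change 1.15, SE 0.17, FDR 0.00143). Hsp90b1 went from 246 and 259 CPM in naive kidneys to 577 and 429 CPM under rejection (log2 fold change 0.99, SE 0.19, FDR 0.00446). The cytosolic members called were Hsph1 (1.03, FDR 0.0154), Hspa1b (1.74, FDR 0.0278) and Hspb1, which rose from 5.48 and 7.20 CPM in naive kidneys to 39.6 and 127 CPM under rejection (log2 fold change 3.71, SE 1.12, FDR 0.0283). Hspa1a did not pass (0.78, FDR 0.181), nor did Hsp90aa1 (0.80, FDR 0.0538), and Dnajb1 was -0.16 (FDR 0.591). Counted as 1 gene, Hspa1a and Hspa1b together did not pass (1.08, FDR 0.0779). With DESeq2 the Hspa1b call was lost (1.71, FDR 0.0635). The count of 5 was 2 without naive kidney 1, 3 without naive kidney 2 and 3 without rejecting kidney 1, and 8 without the filter on low counts. Other ER genes moved with the pair: 13 of 30 rose and 2 fell (median 0.52), including Ddit3, the stress-induced transcription factor CHOP (2.03, FDR 0.000624), Hyou1, an ER HSP70 relative (1.52, FDR 0.00405), and Pdia3, a disulfide isomerase (1.05, FDR 0.00261). Of 41 other heat shock and cochaperone genes, 8 rose and 6 fell (median -0.04), where 22.5% of all genes rose and 19.1% fell. Among them were the small heat shock proteins Hspb8 (3.48, FDR 0.00322) and Hspb6 (-1.69, FDR 0.0259), both at low levels. Hspb8 was at 0.51 and 0.54 CPM in naive and 5.40 and 6.46 CPM in rejecting kidneys. Hspb6 was at 3.83 and 6.90 CPM in naive and 1.39 and 2.00 CPM in rejecting kidneys. Of the 18 immediate early genes 11 rose and 0 fell, including Atf3 (5.03, FDR 0.000119).

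In the loop of Henle, Hspa8, Hsph1, Hspb1, Hsp90aa1, Hsp90ab1 and Hspa5 rose in rejecting kidneys. Hsph1 went from 45.8 and 27.2 CPM in naive kidneys to 95.2 and 82.8 CPM under rejection (log2 fold change 1.23, SE 0.26, FDR 0.00730), Hspb1 from 11.3 and 20.04 CPM in naive kidneys to 38.7 and 40.9 CPM under rejection (1.43, FDR 0.00799), and Hspa8 from 722 and 716 CPM in naive kidneys to 1425 and 1348 CPM under rejection (0.95, FDR 0.0108). The other 3 lay between 0.78 for Hsp90aa1 and 0.97 for Hspa5. Hspa1a and Hspa1b were -0.18 and -0.11 and did not pass. The count of 6 was 2 without naive kidney 1, 1 without naive kidney 2 and 3 in cells with at most 20% mitochondrial UMIs. Of the other genes, 8 of 37 heat shock and cochaperone and 7 of 30 ER genes rose and 0 and 1 fell, including the small heat shock protein Cryab (1.85, FDR 0.0104), the secreted ER factor Manf (1.76, FDR 0.000653) and, falling, the collagen chaperone Serpinh1 (-1.22, FDR 0.00364).

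In the collecting duct, Hspa8, Hspb1, Hsp90aa1, Hsp90ab1 and Hspa5 rose. Hspa5 went from 329 and 185 CPM in naive kidneys to 634 and 661 CPM under rejection (log2 fold change 1.33, SE 0.26, FDR 0.00534), and Hspb1 from 36.6 and 26.5 CPM in naive kidneys to 92.1 and 67.7 CPM under rejection (log2 fold change 1.32, SE 0.28, FDR 0.00754). The Hspb1 rise was not seen in principal cells, which held 16.4 and 24.6 raw CPM in naive kidneys and 15.4 and 18.2 under rejection. Intercalated cells held 86.5 and 37.5 in naive kidneys and 189 and 201 under rejection. Intercalated cells were 96 of 437 and 40 of 376 naive cells and 49 of 99 and 31 of 104 rejecting cells. Hspa5 was higher in both, at 267 and 173 against 655 and 665 in principal cells and 475 and 253 against 647 and 697 in intercalated cells. Hsp90ab1 was 0.75 (FDR 0.0426). The count of 5 was 2 without naive kidney 1, 0 without naive kidney 2 and 2 without rejecting kidney 1. Of the others, 7 of 39 heat shock and cochaperone and 7 of 30 ER genes rose and 0 fell, including Chordc1, an HSP90 cochaperone (1.74, FDR 0.000898), and Manf (1.75, FDR 0.000188).

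In the distal convoluted tubule, 4 cytosolic members rose and neither ER member passed. Hspa8 was 0.73 (FDR 0.0319), Hsph1 0.66 (FDR 0.0382), Hsp90aa1 0.65 (FDR 0.0274) and Hsp90ab1 0.78 (FDR 0.0187). With DESeq2 the Hsph1 call was lost (0.66, FDR 0.122). Hspa5 was -0.05 (FDR 0.894) and Hsp90b1 0.17 (FDR 0.533), and no test compared the segments. Hspa1a fell, from 106 and 157 CPM in naive kidneys to 72.7 and 87.9 CPM under rejection (log2 fold change -0.71, SE 0.21, FDR 0.0344). The sum of Hspa1a and Hspa1b did not pass (-0.49, FDR 0.0906). The count of 5 was 2 without naive kidney 1, 0 without naive kidney 2 and 0 without rejecting kidney 1.

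In tolerized tubules, the members called against naive tubules were Dnajb1 in proximal tubule, Hsph1 and Hspa1a in loop of Henle, Hspa1a in distal convoluted tubule, and Hspa1a and Dnajb1 in collecting duct, and all but Hsph1 were lower. That is 0 higher and 1 lower in proximal tubule (all genes 16.8% and 15%), 1 and 1 in loop of Henle (5.57% and 5.45%), 0 and 1 in distal convoluted tubule (8.95% and 7.71%) and 0 and 2 in collecting duct (8.94% and 7.9%). Dnajb1 in proximal tubule went from 41.7 and 56.4 CPM in naive kidneys to 32.4 and 22.6 CPM under tolerance (log2 fold change -0.83, SE 0.23, FDR 0.0248). Hspa1a in the loop of Henle went from 195 and 137 CPM in naive kidneys to 87.0 and 67.6 CPM under tolerance (log2 fold change -1.12, SE 0.31, FDR 0.0388), and Hsph1 there from 45.8 and 27.2 CPM in naive kidneys to 76.8 and 71.7 CPM under tolerance (0.97, FDR 0.0294). In the collecting duct, Hspa1a was -0.83 (FDR 0.0295) and Dnajb1 -0.89 (FDR 0.0246), and in the distal convoluted tubule Hspa1a was -0.81 (FDR 0.0217). The sum of Hspa1a and Hspa1b did not pass in loop of Henle (-0.79, FDR 0.145), distal convoluted tubule (-0.44, FDR 0.135) or collecting duct (-0.46, FDR 0.166). In proximal tubule Hspa1a was -0.67 and Hspa1b 0.31, and neither passed. Each count fell to 0 without some single kidney: naive kidney 2 in proximal tubule, naive kidney 2 or either tolerized kidney in loop of Henle and distal convoluted tubule, and naive kidney 1 or tolerized kidney 1 in collecting duct. Proximal tubule gained calls, to 2, without tolerized kidney 1 or without either rejecting kidney, and loop of Henle and collecting duct kept 1 without naive kidney 1, and without naive kidney 2 or tolerized kidney 2, respectively. In the proximal tubule, 9 of 30 other ER genes rose and 1 fell, with Ddit3 at 1.51, FDR 0.00295 and Calr, the ER lectin chaperone, at 0.86, FDR 0.00861. Of 41 heat shock and cochaperone genes 3 rose and 7 fell, including Fkbp5, an HSP90 cochaperone (-0.86, FDR 0.0193), and Hspe1, the mitochondrial HSP10 (-0.74, FDR 0.0368). Comparisons with the same naive kidneys share their controls.

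**Figure D3:**
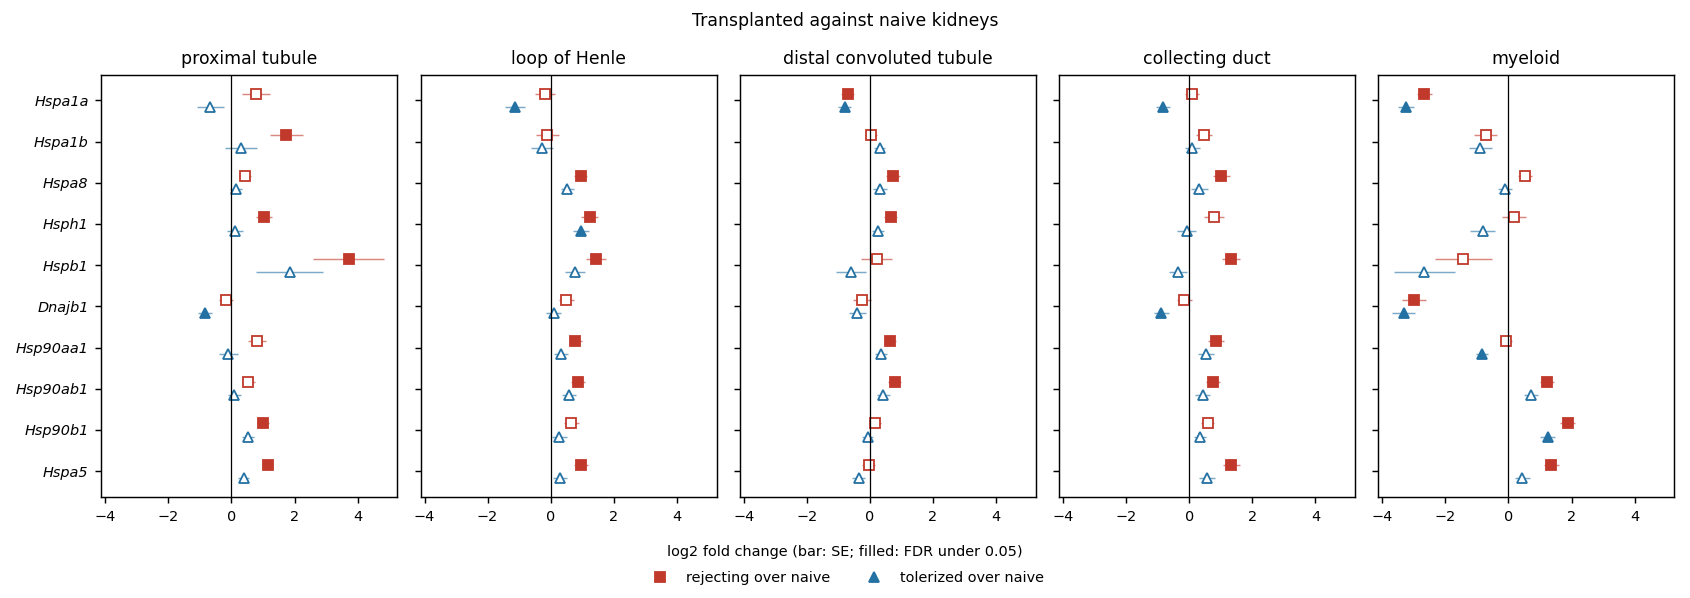
Log2 fold change of rejecting (squares) and tolerized (triangles) over naive kidneys in 5 classes, with bars of 1 SE; filled points passed an FDR of 0.05 in edgeR. Most rejecting values lie right of 0 in the tubules, whereas Hspa1a and Dnajb1 lie near -3 in myeloid cells, where Hsp90b1 lies right of 0 in both comparisons.

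In myeloid cells, called members went both ways. By the paper's flow cytometry, myeloid cells of the grafts were mostly recipient-derived, so a rise or fall need not be a change within the same population. The ER pair and Hsp90ab1 were higher in rejecting than naive kidneys: Hsp90b1 went from 222 and 186 CPM in naive kidneys to 809 and 675 CPM under rejection (log2 fold change 1.88, SE 0.23, FDR 0.000933), Hspa5 from 321 and 477 CPM in naive kidneys to 1047 and 1026 CPM under rejection (1.36, FDR 0.00430), and Hsp90ab1 was 1.21 (FDR 0.00632). Hspa1a fell from 1329.6 and 1714 CPM in naive kidneys to 207 and 273 CPM under rejection (log2 fold change -2.67, SE 0.23, FDR 0.000242). Its HSP40 partner Dnajb1 fell from 227 and 530.5 CPM in naive kidneys to 41.3 and 55.8 CPM under rejection (log2 fold change -2.997, SE 0.37, FDR 0.000922). Every transplanted kidney lay below both naive kidneys for both genes. Hspa1a was at 168 and 153 CPM under tolerance (-3.25, FDR 0.000109) and Dnajb1 at 45.4 and 31.3 CPM under tolerance (-3.33, FDR 0.00121). Hsp90aa1 was also lower (-0.83, FDR 0.0285) and Hsp90b1 higher (1.24, FDR 0.0113), so 1 member was called higher (5.17% of all genes) and 3 lower (3.44%). Hspa1b was -0.72 (FDR 0.212) and -0.89 (FDR 0.169) and did not pass. Hspa1a and Hspa1b summed gave -2.33, FDR 0.000502 and -2.78, FDR 0.000478. The naive sums rested on few molecules, 311 and 711 UMIs of Hspa1a and 53 and 220 of Dnajb1. In both naive kidneys most of these UMIs came from the macrophage cluster described in the next paragraph. The other myeloid clusters were not tested apart, so the fall is not shown for them. The tolerized count of 4 was 2 without naive kidney 2, and 7 without the filter on low counts.

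The macrophage cluster led by Nlrp1b, Lilra5 and P2ry6 held 132 of the 226 naive and 657 of the 6482 transplanted myeloid cells. The naive kidneys differed in this: it held 36 of 80 myeloid cells in naive kidney 1 and 96 of 146 in naive kidney 2. Doublet calls had removed 28.4% of its cells. Its median depth was 2113.5 and 2874.5 UMIs in naive and 1242.5 to 2095 in transplanted kidneys. The other myeloid clusters, pooled, had medians of 7222.5 to 11589 UMIs in the transplanted kidneys. Taken singly, over all their cells, they had medians of 3704, 6560.5 and 10877. Within this macrophage cluster, Hspa1a stood at 2847 and 2282 raw CPM in naive kidneys, 267 and 359 under rejection and 143 and 218 under tolerance. Dnajb1 stood at 474 and 739.7, 32.5 and 33.2 and 28.7 and 0. Within this name naive and transplanted cells were not alike, since at resolution 0.8 a macrophage cluster held 35 and 94 naive cells and 0 to 2 cells of each transplanted kidney. At the main resolution the cluster held 36 and 96 naive cells, and 36 is under the minimum of 50 set for testing a class. Restricted to this cluster, the rejecting to naive change was -3.13, FDR 1.72e-06 for Hspa1a and -4.35, FDR 6.55e-06 for Dnajb1. Hsp90b1 was 1.45, FDR 0.00277. The Hspa5 and Hsp90ab1 calls were lost there (0.54, FDR 0.228; 0.43, FDR 0.259), as was the tolerized to naive call of Hsp90b1 (0.82, FDR 0.0872). Thinned to 1000 UMIs, the share of myeloid cells with a UMI of Hspa1a was 48.8% and 59.6% in naive and 16.7% and 18.7% in rejecting kidneys, against 3.49% and 4.86% in naive proximal tubule. For Dnajb1 it was 16.2% and 27.4%, 3.51% and 6.12% and 3.01% and 3.72%.

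The fall in myeloid cells differed from the change in proximal tubule by a test of the difference itself, chosen after seeing the data. In rejecting against naive kidneys, the myeloid minus proximal tubule difference in log2 fold change was -3.46, SE 0.43, FDR 0.00110 for Hspa1a, -2.47, SE 0.40, FDR 0.00460 for Hspa1b and -2.77, SE 0.32, FDR 0.00067 for Dnajb1, or 3 of 10 members (7.8% of all genes). In tolerized against naive kidneys it was -2.41, SE 0.44, FDR 0.0147 for Hspa1a and -2.48, SE 0.32, FDR 0.00184 for Dnajb1, or 2 of 10 (2.93%). The ER pair did not pass (Hspa5 0.21, SE 0.29, FDR 0.771 and Hsp90b1 0.88, SE 0.26, FDR 0.0637 in rejecting kidneys). The 2 changes are confounded differently. Graft-derived tubule cells differ from naive ones in strain and donor age, whereas graft myeloid cells were mostly recipient-derived by the paper's flow cytometry. Cluster make-up also differed between naive and transplanted cells in both classes. These cannot be told apart from the difference tested.

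The immediate early genes moved with Hspa1a and Dnajb1 in these cells. Their 18 genes summed to 16108 to 17711 raw CPM in naive myeloid cells, 5472 to 8076 under rejection and 5724 to 6565 under tolerance. Of these, 12 of 18 fell in rejecting kidneys and 2 rose, including Egr1 (-3.80, FDR 0.000615), Ier2 (-2.71, FDR 0.000482) and Dusp1 (-2.29, FDR 0.00229), and 11 fell in tolerized kidneys. In proximal tubule the same list summed to 1411 to 1761 in naive and 4795 to 5745 in rejecting kidneys, the opposite order. Both gene groups are known to be raised by enzymatic dissociation of tissue, and its part was not tested. Proximal tubule markers in the myeloid sums were 1839.8 to 2270.3 in naive kidneys, 58.4 to 162 under rejection and 169 to 437 under tolerance. Naive proximal tubule held 64.8 and 76.1 raw CPM of Hspa1a. The part of these markers was not tested. Of the other lists, 11 of 30 ER genes rose and 0 fell in rejecting myeloid cells (median 0.69), with the ER cochaperone Dnajc3 (1.95, FDR 0.00176) and Calr (1.37, FDR 0.00180) among them, and 6 of 38 heat shock and cochaperone genes rose and 0 fell. In tolerized myeloid cells 2 of 30 ER genes rose and 1 fell, and 2 of 38 heat shock and cochaperone genes rose.

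Naive T cells, with 34 and 40 cells, are given without a test. Dnajb1 stood at 202 and 239 raw CPM in naive T cells and 46.3 to 86.0 in the 4 transplanted kidneys, whereas Hspa5 stood at 259.9 and 119.5 and 323 to 566. Hspa1a was at 43.3 and 141 and overlapped the transplanted range of 17.0 to 89.7.

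Across the 10 cell classes ranked, endothelium stood apart for 3 members. Small named clusters such as stroma, neutrophils and plasma cells, and the unnamed clusters, were not ranked. Over the 4 transplanted kidneys, Hspb1 ranged from 776 to 2169.6 raw CPM in endothelium, while the next class, proximal tubule, ranged from 2.23 to 148. Naive endothelium held 1384 and 1534. Hspb1 then fell in order through collecting duct (18.9 to 94.7), loop of Henle (24.5 to 42.5) and distal convoluted tubule (10.5 to 49.4), whose ranges overlap, to B cells (1.06 to 7.66), whose range does not, and was lowest in T, dendritic, myeloid and NK cells. Within the collecting duct, intercalated cells held 37.5 to 201 and principal cells 12.5 to 24.6 over the 6 kidneys. Hspa1a was also highest in endothelium (435 to 1107), above conventional dendritic cells (109 to 356) in all 4 kidneys, and lowest in NK cells (5.02 to 31.2). In naive endothelium it reached 3018 and 2095. However, 162 of 269 and 145 of 241 naive endothelial cells lay in a cluster led by Plat that held 1 transplanted cell. Hspa1b followed, at 196 to 468 in endothelium and 84.9 to 159 in the next class, collecting duct. For the remaining 7 members, the ranges of neighbouring classes overlapped at every step of the order. Hspa5 was highest in myeloid cells (517 to 1053) and lowest in distal convoluted tubule (261 to 399), and Hsp90aa1 highest in proximal tubule (468 to 1612) and lowest in myeloid cells (321 to 604). Hspa8 was highest in conventional dendritic cells (2120.2 to 4538) and lowest in distal convoluted tubule (781 to 1443) and collecting duct (751 to 1719), whose order turned without mitochondrial UMIs. Rejecting kidney 2 gave only 49 endothelial cells. Leaving mitochondrial UMIs out of the totals kept endothelium first for Hspb1, Hspa1a and Hspa1b.

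**Figure D4:**
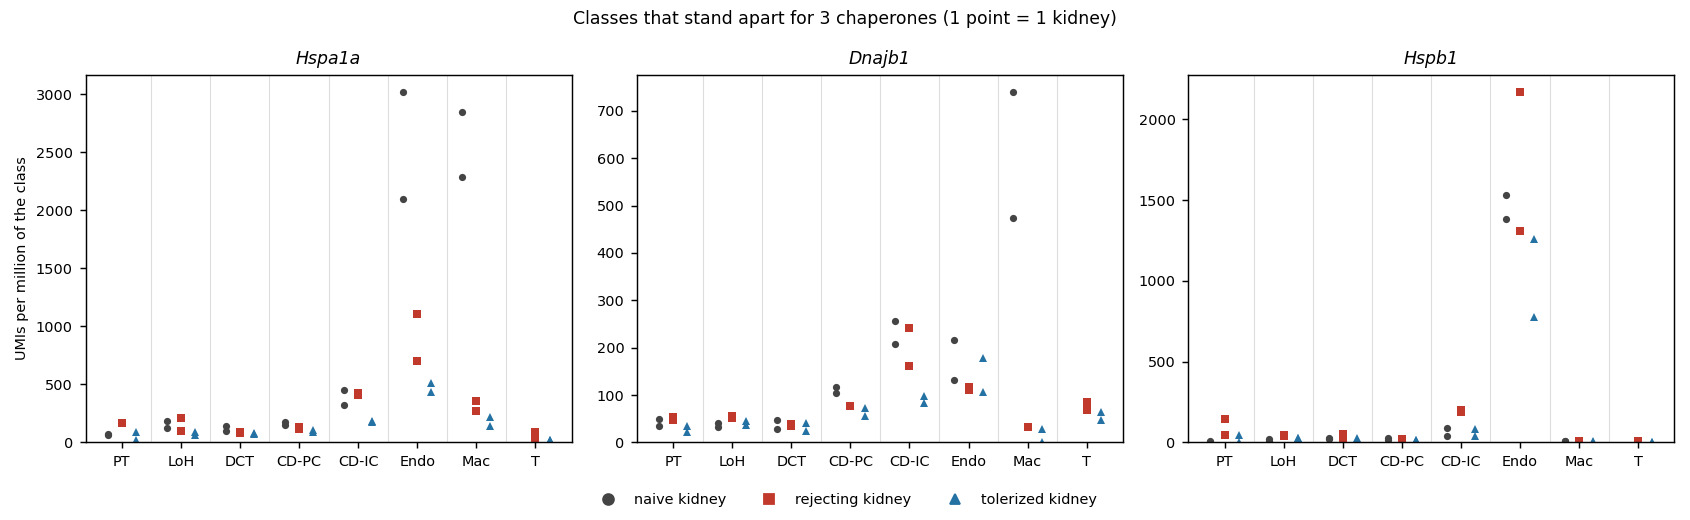
Raw CPM for Hspa1a, Dnajb1 and Hspb1 in proximal tubule (PT), loop of Henle (LoH), distal convoluted tubule (DCT), principal (CD-PC) and intercalated (CD-IC) collecting duct cells, endothelium (Endo), the macrophage cluster (Mac) and T cells (T), 1 point per kidney. Hspb1 is high in endothelium of every kidney, while Dnajb1 and Hspa1a are higher in the macrophages of both naive kidneys than of any transplanted kidney.

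Over 52 sums of a class in a kidney with at least 50 cells, the genes whose log2 level was most like Hspa1a, among 8693 genes, were Hspa1b (Pearson r = 0.861), Tmem109 (0.845), Fos (0.814), Ifitm2 (0.808) and Dusp3 (0.8001). Those most like Hspa5 were the ER genes Pdia6 (0.803) and Manf (0.793), the guanylate-binding proteins Gbp8 (0.775) and Gbp5 (0.772), and Hsp90ab1 (0.758). Hspa1a and Hspa5 themselves correlated at 0.184. Sums from 1 kidney share a library, so these values are descriptions. Hspa1a and Hspa1b transcripts share 58.8% and 62.3% of their 50-base windows, but 0% within the last 500 bases, from which 3' reads mostly come, so their separate counts are uncertain for reads that start further upstream.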

How the data were processed

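Single-cell RNA-seq libraries (10x Genomics, 3' chemistry) of 6 mouse kidneys, 2 per group, were analysed. The authors deposited unnormalized UMI counts per gene and cell barcode, made with Cell Ranger after bcl2fastq on mm10 according to the submitters' processing notes. The transplanted matrices name software version 3.0.1 in their headers, and the version behind the naive matrices is not given in the sources used here. No column belonged to another series (0 columns).

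A barcode was kept (49797 in all) if it reached 500 UMIs and 250 genes and its mitochondrial share did not exceed 50%. Scrublet, run in scanpy 1.11.5, called only 438 doublets, so the highest scores were removed at 0.8% per 1000 barcodes. Cells were clustered on 2500 variable genes, 40 components and 20 neighbors with leidenalg 0.10.2 at resolution 1.5, and a cluster was named from at least 3 detected markers. UMIs were summed per kidney and class, and tested with the quasi-likelihood test of edgeR 4.0.16 (R 4.3.3, filterByExpr, TMM, Benjamini-Hochberg adjustment over all genes tested). Tubular classes were fitted with all 6 kidneys. T cells and the tolerized to rejecting test in myeloid cells used the 4 transplanted kidneys, and myeloid cells against naive all 6, so myeloid CPM values differ slightly between these fits. The kidney was the replicate, and p-values measure the spread between kidneys, which may be partly technical. The study ran 2 experiments, but the labels do not tie kidneys to them, so experiment was not a term of any fit. The script was tested on simulated data.

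The members and gene lists were chosen with earlier results of these data known. All 10 members are named, with up to 5 called genes per other chaperone list by largest change. Among immediate early genes the rule named Fos, Jun and Egr1, and Atf3, Ier2, Ier5 and Dusp1 were named after their values were seen. Alternatives were DESeq2 1.42.0, its size factors, no filter on low counts, a replicate block, leaving out each kidney, resolution 0.8, doublets kept, at least 1000 UMIs or at most 20% mitochondrial UMIs per cell, mitochondrial genes left out, macrophage clusters alone or dendritic cells added, other thinning depths, and fitting only the groups compared. Chosen after seeing the data were the fits without the Ubd-led cluster or the low-UMI T cell cluster, the crossed block, the sum of Hspa1a and Hspa1b, and the tests of class differences against naive kidneys.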

Additional observations from a re-analysis of the deposited data

Results flagged for a closer look

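Changes of 3 cytosolic chaperones differed between myeloid cells and proximal tubule when the difference itself was tested with edgeR. Against naive kidneys, the myeloid minus proximal tubule difference in log2 fold change in rejecting kidneys was -3.46 for Hspa1a, -2.47 for Hspa1b and -2.77 for Dnajb1. In tolerized kidneys it was -2.41 for Hspa1a and -2.48 for Dnajb1. Both sets use the same 2 naive kidneys, whose myeloid sums hold 80 and 146 cells. Of all genes tested, 7.8% passed in rejecting kidneys and 2.93% in tolerized kidneys. These tests were chosen after seeing the data. The 2 classes are also confounded differently with strain, donor age and cluster make-up.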

How the results depend on the processing

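Of 1655 alternative log2 fold changes of a member, 1503 kept their direction and side of the threshold, 96 lost a call, 38 gained one and 18 changed sign. Of 263 alternative counts of called members, 211 stayed within 1.5 times the count reported and 52 did not. The cause was not tested.

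In tolerized against rejecting kidneys, where 0 members were called, DESeq2 called 1 in proximal tubule (178 of 12642 genes) and 1 in collecting duct (41 of 10785). It called 2 in T cells (37 of 11303) and 2 in myeloid cells (67 of 11780). No filter on low counts gave 7 in proximal tubule (849 of 18718) and 3 in collecting duct (323 of 17055). It gave 1 in loop of Henle (293 of 16555) and 2 in myeloid cells (92 of 17414). Keeping doublets gave 1 in collecting duct (6 of 11165), as did at most 20% mitochondrial UMIs (12 of 9454). Leaving out 1 kidney also moved the counts in proximal tubule, collecting duct and T cells, only in fits that left 1 kidney in a group. Against naive kidneys, leaving out 1 kidney gave, for rejecting kidneys, 2 to 7 in proximal tubule, 1 to 6 in loop of Henle, 0 to 4 in distal convoluted tubule and 0 to 6 in collecting duct, and for tolerized kidneys 0 to 2 in proximal tubule, 0 to 2 in loop of Henle, 0 to 1 in distal convoluted tubule, 0 to 2 in collecting duct and 2 to 5 in myeloid cells. No filter gave 8 for rejecting proximal tubule, 4 for tolerized proximal tubule and 7 for tolerized myeloid cells. At most 20% mitochondrial UMIs gave 3 for rejecting loop of Henle and 3, 0 and 3 for tolerized proximal tubule, loop of Henle and distal convoluted tubule. DESeq2 and the fit of only the groups compared each gave 2 for tolerized proximal tubule. Shares over all genes are not given beside the alternative counts against naive kidneys, here or in the Results. Those counts show only how far they move with the processing.

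Signs changed as follows (log2 fold change, tolerized against rejecting unless stated). At most 20% mitochondrial UMIs gave 0.0355 for Hspa1b and 0.25 for Dnajb1 in loop of Henle, and 0.49 for Hspa1a and 0.38 for Dnajb1 in distal convoluted tubule. With doublets kept, Hspa1b in distal convoluted tubule was -0.0353. Summing Hspa1a and Hspa1b gave 0.0464 in distal convoluted tubule, and -0.37 in proximal tubule for tolerized against naive. Leaving out 1 kidney gave -0.49 to 0.14 for Dnajb1 in distal convoluted tubule, -0.38 to 0.0509 for Dnajb1 in proximal tubule (rejecting against naive), -0.23 to 0.0536 for Hspa1a in distal convoluted tubule, -0.68 to 0.67 for Hspa1b in loop of Henle, -0.53 to 0.33 for Hspa1b in myeloid cells, -0.65 to 1.08 for Hspa1b in proximal tubule (tolerized against naive), -1.71 to 0.0941 for Hspb1 in T cells and -1.48 to 0.28 for Hspb1 in distal convoluted tubule. Unthinned shares of cells with a UMI turned from lower to higher in tolerized kidneys, by 5.66 and 8.49 percentage points for Hspa5 and 5.70 and 10.0 for Hsp90b1 in proximal tubule and T cells.

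Replicate numbers were not taken to pair the kidneys: deviations of same-numbered kidneys correlated at -0.22 to 0.09, over 2 pairs. With the replicate block, the rejecting to naive count was 6 in proximal tubule and 4 in collecting duct, where Hsp90ab1 lost its call, and no other count of members changed. A crossed block called 2 members in T cells (60 of 11303 genes) and 3 in myeloid cells (341 of 11780 genes) between tolerized and rejecting kidneys.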
